A study of Mus musculus with 4 samples.

Results

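The visinin-like calcium sensors are 5 closely related genes of the neuronal calcium sensor family, Vsnl1, Hpca, Hpcal1, Hpcal4 and Ncald. They were taken by symbol from a table of 25259 genes, and each was found there once. Vsnl1 was picked because earlier work on these libraries showed a trend in it between genotypes, so its genotype values are given as a description without a test. The other 4 genes were added as its relatives and not for any measured value, though earlier results of these data were known by then.

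RNA was sequenced from dorsomedial striatum (DMS) and dorsolateral striatum (DLS) of C57BL/6 mice aged 8 weeks, cut from frozen brains by laser capture, with 15 ng of total RNA going into each library. One genotype was wild-type and the other was homozygous for a humanised allele of the transcription factor gene Foxp2 (Foxp2hum/hum), and no treatment is named for any group. There were 11 wild-type and 12 Foxp2hum/hum libraries from each region, 46 in all, and the totals ran from 16.79 to 41.01 M reads per library. The labels tie libraries neither to animals nor to the 3 flow cells. Where libraries share an animal, the p-values below treat them as independent. Sharing within a group would make them too small, and an animal giving both regions could make those by region too large. No flow-cell effect could be separated from the groups. Libraries 70 and 72, both wild-type, stood apart in earlier work on these data, and leaving them out together changed no call of a member.

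Neuronal calcium sensors are small proteins that bind calcium through EF-hand motifs. In this branch of the family a fatty acid, myristate, is attached to the start of the protein. Calcium binding exposes it and carries the protein to membranes. Hippocalcin, encoded by Hpca, is known for its abundance in hippocampal and other forebrain neurons and for roles in the slow afterhyperpolarisation and in receptor endocytosis. Visinin-like protein 1, encoded by Vsnl1, is known to affect the surface number of nicotinic receptors. Hpcal4 encodes a further visinin-like protein, reported to modulate presynaptic calcium channels. Hpcal1 encodes a near relative of hippocalcin, and Ncald encodes neurocalcin delta, which interacts with guanylate cyclases and with clathrin.

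The first 60 coding bases are shown because they encode the start of the protein, where myristate is attached. They come from the GENCODE M1 transcripts on mm9, and capitals mark bases that differ from Hpca, which itself is printed without capitals.

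Hpca: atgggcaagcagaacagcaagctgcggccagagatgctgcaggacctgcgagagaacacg
Hpcal1: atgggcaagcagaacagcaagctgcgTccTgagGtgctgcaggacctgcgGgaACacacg
Ncald: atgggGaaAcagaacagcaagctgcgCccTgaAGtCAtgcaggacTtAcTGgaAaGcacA
Vsnl1: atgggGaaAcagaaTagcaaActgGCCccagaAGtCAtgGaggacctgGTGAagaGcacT
Hpcal4: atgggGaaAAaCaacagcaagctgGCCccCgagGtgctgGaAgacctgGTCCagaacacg

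Hpcal1 differed from Hpca at 6 of these 60 bases, Ncald and Hpcal4 at 15 each and Vsnl1 at 18. The stretch below is coding bases 160 to 219 of Hpca. Of the 60-base coding windows without gaps, tried in codon steps, it had the most positions identical in all 5 genes, 43 of 60.

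Hpca: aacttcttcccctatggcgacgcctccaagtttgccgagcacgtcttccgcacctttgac
Hpcal1: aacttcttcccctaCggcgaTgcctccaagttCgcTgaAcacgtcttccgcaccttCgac
Ncald: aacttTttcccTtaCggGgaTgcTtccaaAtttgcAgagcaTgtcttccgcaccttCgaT
Vsnl1: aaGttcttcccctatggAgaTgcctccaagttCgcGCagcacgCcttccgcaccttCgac
Hpcal4: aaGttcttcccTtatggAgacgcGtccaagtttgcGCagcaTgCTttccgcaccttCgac

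Over the whole coding sequence the genes fell into a trio and a pair. Hpca, Hpcal1 and Ncald shared 78.7% to 86.1% of aligned bases, with Hpca and Hpcal1 the closest at 86.1%. Vsnl1 and Hpcal4 shared 82.1%, and any gene of the pair shared between 67.7% and 73.5% with any gene of the trio. The longest run of identical bases between 2 members was 46, between Hpca and Ncald. The sources used here give no read length, so it was not tested whether reads could be assigned to the wrong member.

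**Figure D1:**
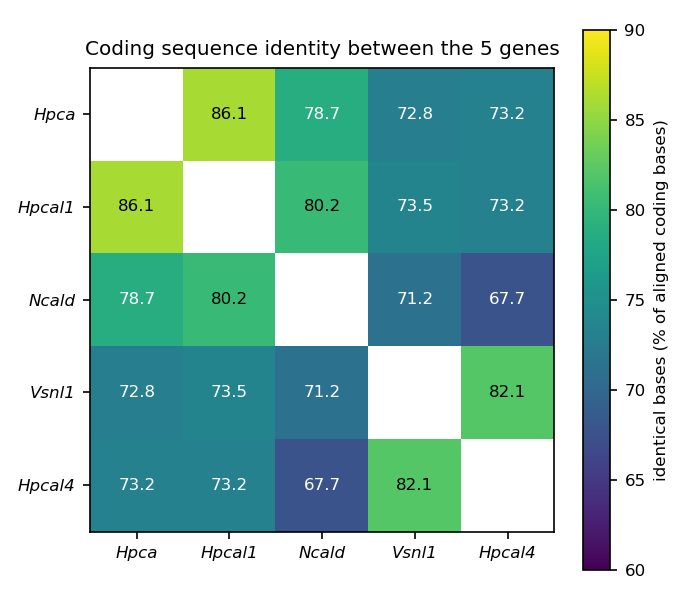
Share of identical bases between the coding sequences of each pair of genes, in percent of aligned coding bases, as a colour scale with the value printed in each cell. The highest value is 86.1% for Hpca and Hpcal1, the next is 82.1% for Vsnl1 and Hpcal4, and the lowest is 67.7% for Hpcal4 and Ncald.

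All 5 are protein-coding genes, and each passed the filter on low values. On mm9, Hpca (ENSMUSG00000028785) lies on the minus strand of chromosome 4 from 128788814 to 128799280. Hpcal4 (ENSMUSG00000046093) lies on the plus strand of the same chromosome from 122860470 to 122871944. Vsnl1 (ENSMUSG00000054459) is on chromosome 12, minus strand, from 11332053 to 11443455. Hpcal1 (ENSMUSG00000071379) is also on chromosome 12, plus strand, from 17697620 to 17798732. Ncald (ENSMUSG00000051359) is on chromosome 15, minus strand, from 37295930 to 37722325.

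Hpca stood far above its relatives in these libraries. On the scale of normalised reads per kilobase of annotated exon, averaged over the 46 libraries, its level was 11013, followed by Hpcal4 at 1615, Vsnl1 at 471, Hpcal1 at 204 and Ncald at 134. The libraries of Hpca and Hpcal4 did not overlap on this scale in any of the 4 groups. Hpcal4 and Vsnl1 overlapped only in Foxp2hum/hum DLS, Vsnl1 and Hpcal1 only in wild-type DLS, and Hpcal1 and Ncald in both Foxp2hum/hum groups. The order of the last 2 depends on the length used. Per kilobase of the transcript whose coding sequence is printed above, Ncald was at 250.3 and Hpcal1 at 204.

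**Figure D2:**
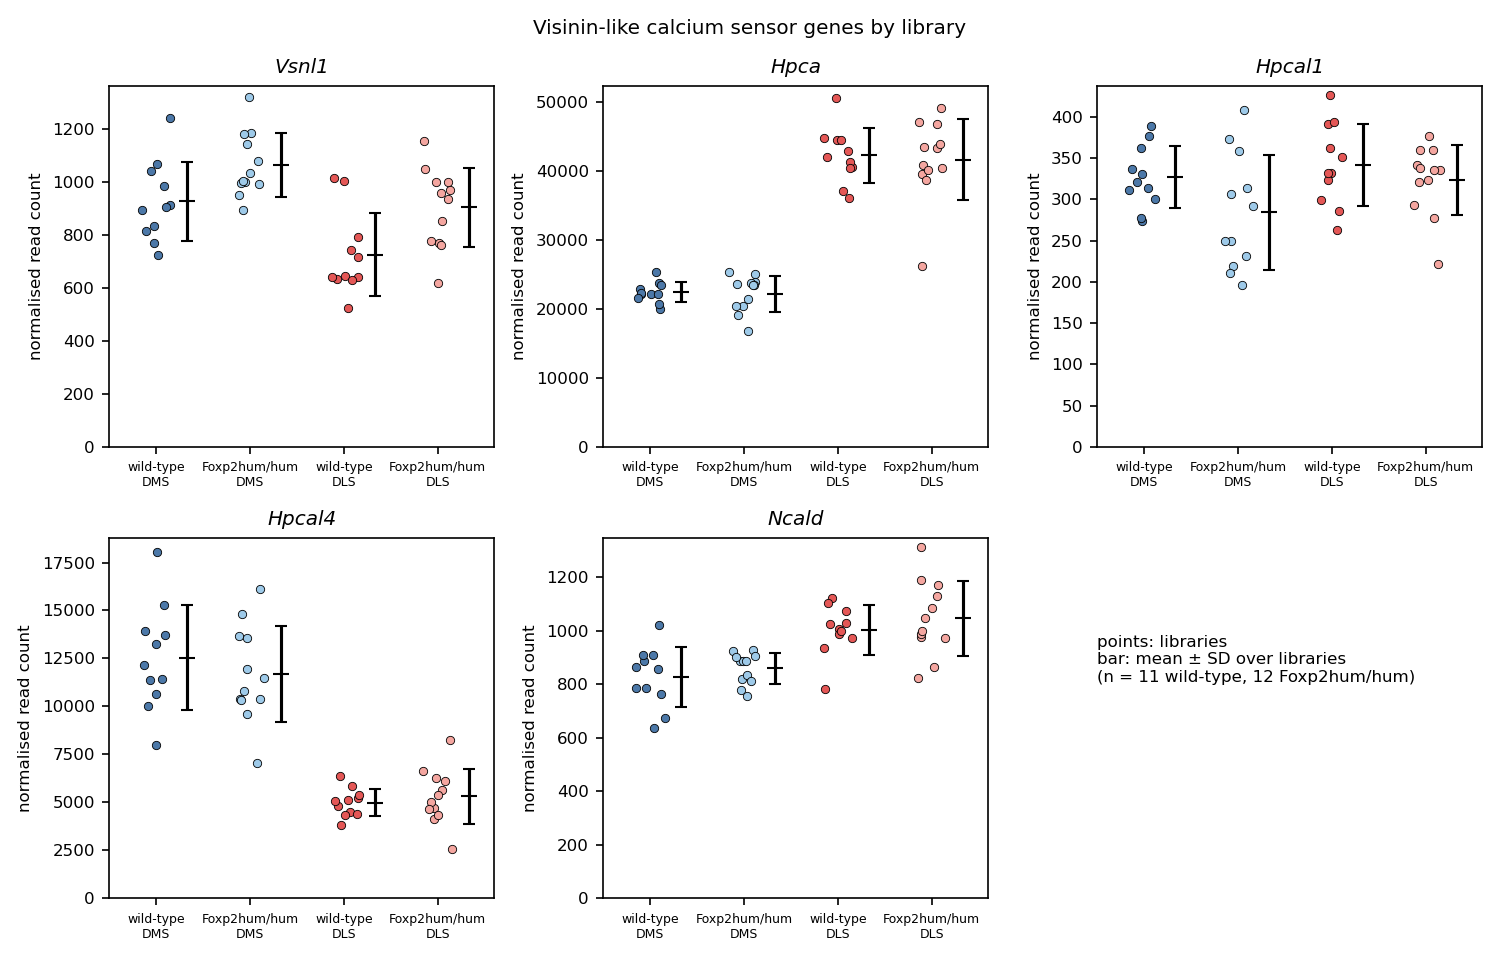
Normalised read count of each gene in every library, with a linear axis from 0 for each panel, by genotype and region. Points are libraries, and the bar beside them is the mean ± SD. Hpca is lower in DMS than in DLS without overlap in either genotype, Hpcal4 is higher in DMS, and the groups of Hpcal1 overlap widely.

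The next comparison was of DMS with DLS in each genotype. In wild-type mice, 4 of the 5 genes differed between the regions, and in Foxp2hum/hum mice 3 of 5 did. Vsnl1 is counted here although the trend that picked it used the same libraries, so its regional tests are not independent of that choice. Hpca and Ncald, of the trio, were lower in DMS in both genotypes. Hpcal4, of the pair, was higher in DMS in both, and Vsnl1 was higher in DMS in wild-type mice. Of all 19561 genes tested, 17.3% passed in wild-type, 8.54% higher and 8.72% lower in DMS. In Foxp2hum/hum 18.1% passed, 9.33% higher and 8.82% lower. The test was limma on log2(normalised count + 1), with a Benjamini-Hochberg adjusted p below 0.05 as the threshold, and the log2 differences below are DMS minus DLS on that scale with their SE. The median difference over all tested genes was 0.0067 in wild-type mice and 0.018 in the other genotype.

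Hpca, the hippocalcin gene, was lower in DMS by nearly the same amount in both genotypes. In wild-type DMS the lowest, median and highest normalised counts were 20016, 22176 and 25409 over 11 libraries, against 36022, 41995 and 50648 over 11 DLS libraries. In Foxp2hum/hum DMS they were 16797, 23463 and 25333 over 12 libraries, against 26200.4, 42089 and 49113 over 12 DLS libraries. Every DLS library was above every DMS library of the same genotype. Such complete separation with lower values in DMS held for 1.02% of tested genes in wild-type and 1.15% in Foxp2hum/hum.

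In wild-type mice the mean Hpca level was 22428 ± 1478 in DMS and 42259 ± 4003 in DLS (± SD, 11 libraries each), with a log2 difference of -0.91 ± 0.08 (SE) and a level 1.88-fold lower in DMS (limma adjusted p = 1.02e-12). In Foxp2hum/hum the means were 22223 ± 2601 in DMS (n = 12) and 41624 ± 5875 in DLS (n = 12), a log2 difference of -0.90 ± 0.08 and 1.87-fold lower (limma adjusted p = 3.3e-13). Over the alternative fits the difference came closest to 0 at -0.65 in wild-type and at -0.55 in Foxp2hum/hum, the latter with quantile normalisation. Of all tested genes, 5.0% had a larger absolute log2 difference than Hpca in wild-type and 5.34% in Foxp2hum/hum.

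Hpcal4, the calcium channel-modulating relative of Vsnl1, ran the other way and had the largest regional difference of the 5. In wild-type DMS its lowest, median and highest counts were 7990.0, 12179.6 and 18032, against 3840.3, 5065 and 6366 in DLS. In Foxp2hum/hum DMS they were 7040.3, 11154 and 16109.7, against 2589, 5193 and 8249.9 in DLS. The wild-type regions did not overlap, which held in this direction for 0.93% of tested genes. The Foxp2hum/hum regions overlapped through 1 library on each side, library 64 at the bottom of DMS and library 94 at the top of DLS, and 1.06% of genes separated completely there.

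In wild-type mice its mean was 12533 ± 2735 in DMS and 4991 ± 724 in DLS (± SD, 11 libraries each). The log2 difference was 1.31 ± 0.14 (SE), 2.48-fold higher in DMS (limma adjusted p = 9.17e-11). In Foxp2hum/hum the means were 11685 ± 2503 and 5309 ± 1435 (n = 12 each), with a log2 difference of 1.16 ± 0.13, 2.23-fold higher in DMS (limma adjusted p = 7.66e-10). Larger absolute differences were found in 2.49% of tested genes in wild-type and 3.22% in Foxp2hum/hum.

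**Figure D3:**
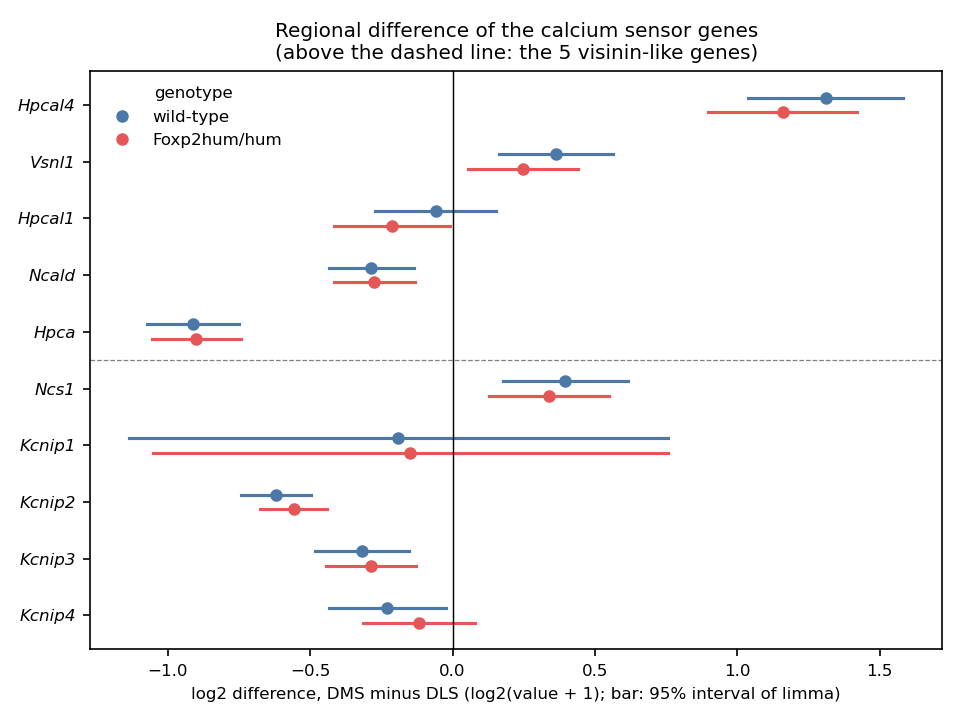
Log2 difference between DMS and DLS with its 95% interval from limma, on the x axis, for the 5 visinin-like genes above the dashed line and 5 other neuronal calcium sensor genes below it, in wild-type (blue) and Foxp2hum/hum (red). Hpcal4 lies at 1.31 and 1.16 and Hpca at -0.91 and -0.90, and the wide intervals of Kcnip1 span 0.

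Hpca and Hpcal4 moved in opposite directions, so the ratio of their reads within a library differed more between the regions than either gene. Hpca had 1.86 ± 0.41 times the reads of Hpcal4 in wild-type DMS (SD, n = 11) against 8.68 ± 1.78 times in wild-type DLS (n = 11). In Foxp2hum/hum the ratio was 2.02 ± 0.64 in DMS and 8.74 ± 3.89 in DLS (n = 12 each). The highest ratio in wild-type DMS was 2.54 and the lowest in wild-type DLS 5.66. In Foxp2hum/hum the highest ratio in DMS was 3.37 and the lowest in DLS 3.18, so these regions overlapped narrowly. Per kilobase of exon, Hpca made up 71.0% of the 5 genes' summed level in wild-type DMS and 89.6% in wild-type DLS, while Hpcal4 made up 21.5% and 5.85%. The corresponding shares in Foxp2hum/hum were 71.3% and 88.4% for Hpca and 20.7% and 6.46% for Hpcal4.

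Library 94, from Foxp2hum/hum DLS, stood apart in 4 of the 5 genes. It was the lowest of its group for Hpca, at 26200.4 against 38684 for the next library, and the highest for Hpcal4, at 8249.9 against 6620.0. It was also the lowest for Vsnl1 and Hpcal1. Cnr1 and Crym were chosen here because they separate the labelled regions in these data, library 94 included. Their values in this library are therefore a description and no check of its region. Its Cnr1 count, 14503, was the highest of its group, while no DMS library of either genotype exceeded 2532. Its Crym count, 232, was the lowest of its group. Without library 94 the Foxp2hum/hum difference was -0.96 for Hpca and 1.22 for Hpcal4, and both remained past the threshold.

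**Figure D4:**
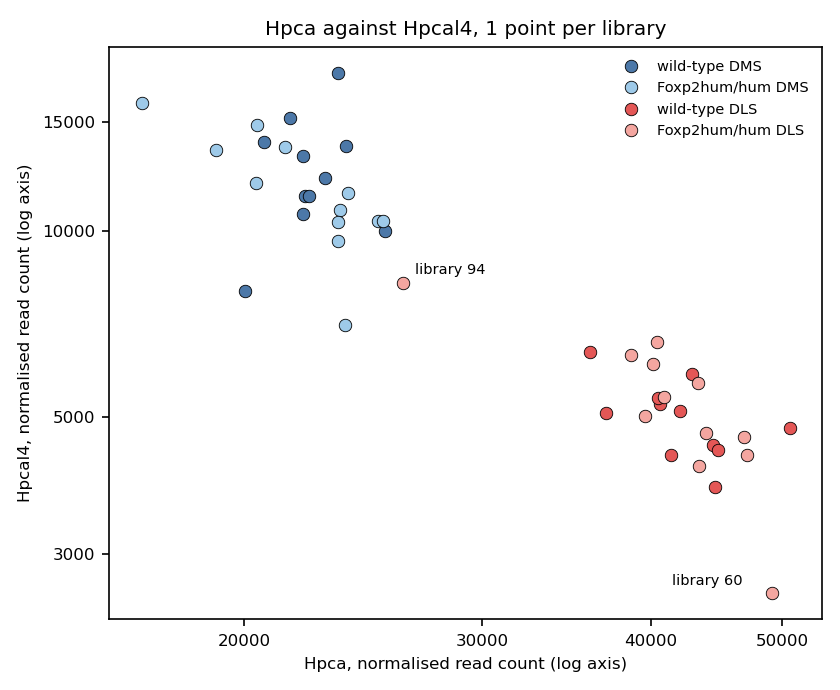
Hpca against Hpcal4 in normalised read counts, both on log axes, with 1 point per library coloured by genotype and region. DMS libraries lie at the upper left and DLS libraries at the lower right. The 2 labelled libraries, both from Foxp2hum/hum DLS, are library 94, at a Hpca count of 26200.4, and library 60, with the lowest Hpcal4 count, 2589.

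Ncald, the neurocalcin delta gene, was modestly lower in DMS in both genotypes. Its lowest, median and highest counts in wild-type were 634, 855 and 1021 in DMS against 781, 1005 and 1123 in DLS. In Foxp2hum/hum they were 756, 885 and 927 against 822, 1022 and 1314. The regions overlapped in both genotypes, with 5 of 11 wild-type and 10 of 12 Foxp2hum/hum DLS libraries above every DMS library of their genotype. The mean was 826 ± 112 in wild-type DMS and 1002 ± 92.5 in wild-type DLS (SD, n = 11 each), a log2 difference of -0.28 ± 0.07 (SE, limma adjusted p = 0.00378). In Foxp2hum/hum it was 860 ± 57.9 and 1046 ± 140 (n = 12 each), a log2 difference of -0.27 ± 0.07 (limma adjusted p = 0.00326).

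Hpcal1, the closest relative of Hpca by sequence, showed no regional difference that passed the test. Its lowest, median and highest counts in wild-type were 274, 321 and 389 in DMS and 263, 333 and 426 in DLS. In Foxp2hum/hum they were 197, 271 and 409 in DMS and 221, 336 and 377 in DLS. The ranges overlapped in both genotypes. Above the DMS median of their genotype were 8 of 11 wild-type and 11 of 12 Foxp2hum/hum DLS libraries. In wild-type, 3 DLS libraries were above every DMS library, and in Foxp2hum/hum, 3 DMS libraries were below every DLS library. The log2 difference was -0.06 in wild-type, with a 95% interval of -0.27 to 0.15 (limma adjusted p = 0.768; -0.18 with Ttr and Ccdc153 as covariates), and -0.21 in Foxp2hum/hum, with an interval of -0.42 to -0.01 before adjustment (limma adjusted p = 0.153). Both intervals lie above the value for Hpca. Hpcal1 had the fewest reads, 210 in its poorest wild-type DMS library, and the counting error expected in its groups was 5.31% to 5.8% of the mean. The spread between libraries was larger, 11.5% to 24.4%.

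Vsnl1, the visinin-like protein 1 gene, was higher in DMS in wild-type mice. Its lowest, median and highest counts in wild-type were 727, 907 and 1242 in DMS against 525, 646 and 1017 in DLS. In Foxp2hum/hum they were 894, 1021 and 1324 in DMS against 621, 948 and 1156 in DLS. The regions overlapped in both genotypes, but all 11 wild-type DMS libraries and 11 of 12 Foxp2hum/hum DMS libraries were above the DLS median of their genotype. The wild-type log2 difference was 0.36 ± 0.10 (SE, n = 11 each, limma adjusted p = 0.00676). These wild-type libraries also entered the genotype trend that picked Vsnl1, so low wild-type DLS values would raise both differences. The Foxp2hum/hum difference, 0.25 ± 0.10 (n = 12 each), did not pass (limma adjusted p = 0.0651), and 3 alternative fits, as well as leaving out library 33, 48, 51 or 87, brought it just past the threshold.

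Markers of other cell types moved with region too. Summed over 10 markers of choroid plexus and ependyma, the level ran from 616 to 11214 in wild-type DMS against 377 to 548 in DLS, and from 1013 to 7582 in Foxp2hum/hum DMS against 359.6 to 509 in DLS, with 8 of 9 tested markers higher in DMS in each genotype. No marker of this list was at 0 in all libraries of a group. Ccdc153 ran from 40.6 to 308 in wild-type DMS against 0 to 2.15 in DLS. In Foxp2hum/hum it ran from 89.2 to 326 against 0 to 27.9. A fit with this marker as a covariate can therefore hardly tell its level from region, and its regional estimates are imprecise. With Ttr and Ccdc153, of the same list, as covariates, Hpca was still lower in DMS (wild-type -1.03, adjusted p = 0.00464, and Foxp2hum/hum -0.99, adjusted p = 0.00201) and Hpcal4 still higher (1.95, adjusted p = 0.00064, and 1.70, adjusted p = 0.000954). Vsnl1 in wild-type (0.43 ± 0.27 SE, adjusted p = 0.366) and Ncald (-0.21 ± 0.20, adjusted p = 0.561 in wild-type and -0.19 ± 0.18, adjusted p = 0.555 in Foxp2hum/hum) no longer passed, against SEs of 0.10 and 0.07 without the covariates.

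Summed over 10 markers of medium spiny neurons, the main striatal cell type, the level was lower in DMS. It ran from 98769 to 136500.1 in wild-type DMS against 143866 to 178732 in DLS, and from 91905 to 122975 in Foxp2hum/hum DMS against 142353 to 169595 in DLS. None of these markers was at 0 in any library, and 7 of 10 were lower in DMS in each genotype, among them Ppp1r1b (-0.56 in both). Their part in the lower Hpca and Ncald levels was not tested. In tissue RNA, fewer cells of a type and less transcript per cell cannot be told apart. Cortical excitatory neuron markers summed to 463 to 1076.5 in wild-type DMS and 497 to 1948 in wild-type DLS, and to 423 to 921 and 393.5 to 1711 in Foxp2hum/hum, so the regions overlapped. With their mean level as a covariate no regional call was lost.

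The following comparison was of Foxp2hum/hum with wild-type mice within each region. None of the 4 members tested differed between genotypes in either region, and 0% of all 19561 genes passed in DMS or in DLS. At an unadjusted p below 0.05, limma listed 700 genes in DMS and 843 in DLS. After adjustment edgeR called 0 in both, and DESeq2 called 0 in DMS and 3 in DLS. Foxp2 itself averaged 1337 ± 263 and 1332 ± 193 in DMS and 1095 ± 201.5 and 1040.0 ± 221 in DLS (SD, wild-type then Foxp2hum/hum, n = 11 and 12). The allele changes the protein, so these levels are no check of the genotype labels.

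Hpca was almost equal between genotypes. The log2 difference, Foxp2hum/hum minus wild-type, was -0.02 in DMS with a 95% interval of -0.18 to 0.14 (limma adjusted p = 0.979) and -0.03 in DLS with an interval of -0.19 to 0.13 (limma adjusted p = 0.923). The intervals for Ncald were of similar width, -0.08 to 0.21 in DMS around 0.07 and -0.09 to 0.20 in DLS around 0.06. Those for Hpcal4 were wider, -0.37 to 0.16 in DMS around -0.10 and -0.22 to 0.32 in DLS around 0.05, a value that was 0.19 with Ttr and Ccdc153 as covariates. Hpcal1 had the largest difference of the 4, -0.23 in DMS, where 6 of 12 Foxp2hum/hum libraries were below every wild-type library. Its unadjusted p was 0.0303 and its limma adjusted p 0.955, so it did not pass, and in DLS it was -0.08.

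Vsnl1, given as a description, was higher in Foxp2hum/hum libraries in both regions. In DMS the 12 Foxp2hum/hum libraries averaged 1067 ± 121 (SD) and the 11 wild-type libraries 928 ± 149, a log2 difference of 0.21. In DLS the averages were 905 ± 150.4 over 12 and 727 ± 157 over 11 libraries, a log2 difference of 0.33. In each region 11 of 12 Foxp2hum/hum libraries were above the wild-type median, and the genotypes overlapped. The order of its group means was Foxp2hum/hum DMS, wild-type DMS, Foxp2hum/hum DLS and wild-type DLS, and the middle pair, 928 and 905, differed by less than either SD. The share of reads from mitochondrially encoded genes averaged 20.2% ± 4.16 and 22.4% ± 3.84 in DMS and 22.7% ± 3.61 and 24.8% ± 2.87 in DLS (SD, wild-type before Foxp2hum/hum). The steps between genotypes were smaller than these SDs, and their part in the Vsnl1 values was not tested. Expected counting error was 2.88% to 4.06% of the mean in its groups, against spreads of 11.4% to 21.6%.

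**Figure D5:**
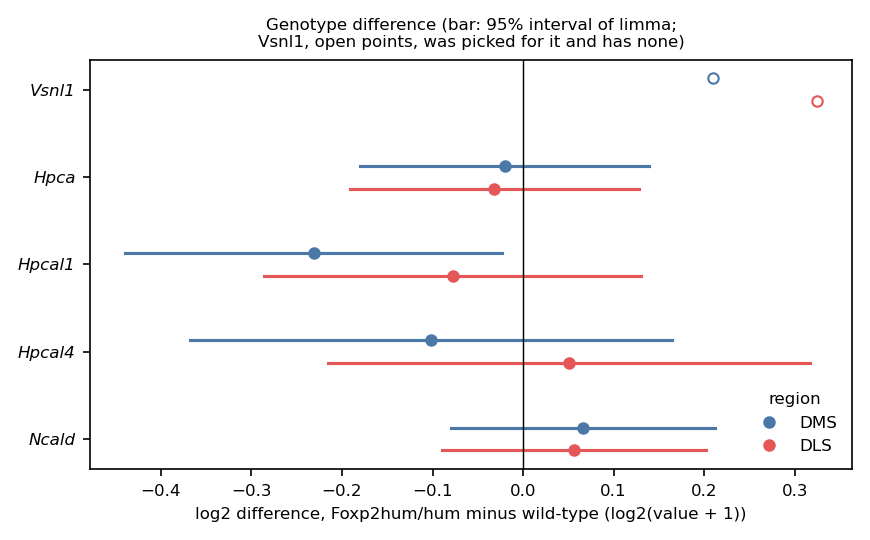
Log2 difference between Foxp2hum/hum and wild-type on the x axis, in DMS (blue) and DLS (red), with 95% intervals from limma for the 4 genes tested. The open points for Vsnl1, 0.21 and 0.33, have no interval because the gene was picked for this difference. Of the 8 intervals drawn, that of Hpcal1 in DMS alone leaves out 0, before adjustment.

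Whether a regional difference itself depended on genotype was tested by the interaction. No member passed, with a limma adjusted p of 1.0 for each of the 4 tested, and 0% of all genes passed (321 at an unadjusted p below 0.05, and 0 after adjustment by edgeR or DESeq2). The difference of the regional differences was 0.01 for Hpca with a 95% interval of -0.21 to 0.24 and 0.01 for Ncald with an interval of -0.20 to 0.22. It was -0.15 for Hpcal4 with an interval of -0.53 to 0.22 and -0.15 for Hpcal1 with an interval of -0.45 to 0.14.

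Members were also compared among libraries of the same group, over 10 pairs in 4 groups. Of the 40 relations none passed by Pearson's r after adjustment, 7 had an unadjusted permutation p below 0.05, and 2 passed by Spearman's rho. In Foxp2hum/hum DLS, libraries with more Hpca had less Hpcal4 (r = -0.783, permutation p = 0.00853, adjusted p = 0.114, rho = -0.853, permutation p = 0.00089, adjusted p = 0.0308, n = 12), and r was -0.735 without the 2 libraries farthest from the Hpca median. For the same pair r was -0.755 in Foxp2hum/hum DMS, -0.552 in wild-type DLS and 0.211 in wild-type DMS, none of which passed after adjustment by either coefficient. In wild-type DMS, libraries with more Hpca had less Ncald (r = -0.622, permutation p = 0.0393, adjusted p = 0.225, rho = -0.855, permutation p = 0.00154, adjusted p = 0.0308, n = 11), with r = -0.720 without the 2 farthest. In the other groups r for Hpca and Ncald was between -0.155 and 0.103. Without the 2 farthest libraries, neither relation that passed by rho passed by r (permutation adjusted p = 0.277 for both).

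The genes whose levels followed each member most closely over all 46 libraries were found among 12023 genes (12022 for Hpca) with a mean of at least 50, clone-type symbols (Rik, Gm and the like) and genes overlapping the member being left out. These coefficients span both regions, and the libraries share depth and tissue makeup, so they are given as a description. For Hpca they were Thy1, a neuronal surface glycoprotein gene (r = 0.982), Nrgn, which encodes the calmodulin-binding neurogranin (0.975), and Ppp1r1b, which encodes DARPP-32 of medium spiny neurons (0.968). After centring each group on its own mean, r for these 3 was 0.882, 0.791 and 0.900. For Hpcal4 they were the adhesion molecule gene Cadm1 (r = 0.962), the RNA-binding protein gene Celf4 (0.954) and the protocadherin gene Pcdh10 (0.945), or 0.820, 0.790 and 0.789 after centring.

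Likeness was weaker for the 3 less abundant members. Vsnl1 was most like Stmn2, which encodes the microtubule regulator stathmin 2 (r = 0.707), then H2-DMa (0.675), Fez1 (0.669), Rbp4 (0.659) and Rnf25 (0.658). Ncald was most like the plastin gene Pls3 (0.721), Ppp3r1, which encodes the regulatory subunit of calcineurin (0.712), and Cnih3, which encodes an AMPA receptor auxiliary protein (0.703). After centring, these 3 were at 0.481, 0.348 and 0.346. Hpcal1 was most like Wbp2 (0.666), Acss2 (0.635) and Klhdc3 (0.601).

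The rest of the neuronal calcium sensor family was measured beside the 5. Of 9 listed genes 8 were in the table, and the photoreceptor genes Rcvrn, Guca1a and Guca1b had means too low to be tested. Among the 5 tested, 1 was higher and 2 were lower in DMS in each genotype. Of all tested genes, 17.3% and 18.1% differed, 8.54% and 9.33% higher and 8.72% and 8.82% lower (wild-type, then Foxp2hum/hum). The median log2 difference of the 5 listed genes was -0.23 for wild-type and -0.15 for Foxp2hum/hum. Ncs1, which encodes neuronal calcium sensor 1, was higher in DMS (0.40 ± 0.11 SE in wild-type, limma adjusted p = 0.00699, and 0.34 ± 0.10 in Foxp2hum/hum, limma adjusted p = 0.0164). Kcnip2 and Kcnip3, whose products bind A-type potassium channels, were lower. Kcnip2 was at -0.62 and -0.56 and Kcnip3 at -0.32 and -0.29 in wild-type and Foxp2hum/hum. Kcnip4 and Kcnip1 did not pass. Kcnip1 was at 228795 in wild-type DMS library 72 and 117635 in wild-type DLS library 70, against at most 14942 and 16265 in the other libraries of those groups. No member of this list passed between genotypes.

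A further list held other calcium sensors and buffers together with calmodulin-binding and calmodulin-dependent effectors. Of its 18 tested genes, 11 were lower and 1 higher in DMS in each genotype, where 8.72% and 8.82% of all tested genes were lower and 8.54% and 9.33% higher (wild-type, then Foxp2hum/hum). The list's median log2 differences were -0.42 and -0.38. Those with the smallest p-values were Nrgn (wild-type -1.91, Foxp2hum/hum -1.93) and Pvalb, which encodes parvalbumin of fast-spiking interneurons (-2.17 and -2.67). S100b was at -0.78 and -0.89, Ppp3r1 at -0.56 and -0.49 and the calmodulin gene Calm3 at -0.45 and -0.53. The 1 gene that was higher, Calb1, which encodes calbindin, is named because it is alone (0.27 and 0.32).

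Of 14 genes for myristoylation enzymes and reported partners of the sensors, 1 was higher and 4 were lower in wild-type DMS, and 1 was higher and 5 lower in Foxp2hum/hum DMS. The 1 of 14 that was higher is near the share over all genes given above, 8.54% and 9.33%, and the shares of all genes that were lower were 8.72% and 8.82%. The list's median log2 differences were -0.14 and -0.16. Chrna4, the nicotinic receptor subunit gene whose product is reported to bind visinin-like protein 1, was higher in DMS (0.71 and 0.83). Nmt2, an N-myristoyltransferase gene, was lower (-0.32 and -0.28), as were the kinase gene Map3k10 (-0.44 and -0.51), the phospholipase D gene Pld2 (-0.38 and -0.29) and the receptor subunit gene Chrnb2 (-0.36 and -0.43). Dlg4 was lower in Foxp2hum/hum (-0.32) and is named, like Pld2 there and Chrnb2 in wild-type, to complete the count. No gene of either list passed between genotypes.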

How the data were processed

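RNA of 46 laser-captured striatal samples was sequenced (Illumina GAIIx). Per the submitters' processing notes, mm9, TopHat 1.4.1, bedtools and DESeq were used. The signal deposited for each gene is a read count that the authors divided by the size factor of its library. Multiplying it back gave whole reads for 100% of values, to within 0.01. No pair of libraries of the same group agreed within counting error (lowest chi-square per degree of freedom 9.25). Pairs from different groups were not compared. Libraries were grouped by the header.

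The 19561 genes averaging at least 10 went into limma 3.58.1 (R 4.3.3) as log2(value + 1), using 4 group means over all libraries, a trend in eBayes, two-sided tests and Benjamini-Hochberg adjustment at 0.05. Correlations used 100000 two-sided permutations. Alternatives were a pseudocount of 5, no filter or a mean of at least 50, quantile normalisation, edgeR 4.0.16, DESeq2 1.42.0, array weights, the compared groups alone, leaving out libraries 70 and 72, marker covariates and leaving out each library. The limma, edgeR and DESeq2 steps ran on recovered or normalised values of the same table, and the limma step was tested on simulated counts. A first criterion, on recovery of 2-fold changes, was narrowly missed for the regional comparison in wild-type and was replaced, after this was seen, by one on 4-fold changes, bias and false calls, which was met. Changes below 2-fold were often missed in that test. Expected counting error covers sampling of reads only.

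Of the 25259 genes, 25023 were matched by identifier to GENCODE M1, the source of positions, lengths and coding sequences. No overlapping gene held 2% or more of a member's value.

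The members, lists and markers were chosen with earlier results of these data known. Named genes are the 5 members, Foxp2, per member the 3 genes (5 for Vsnl1) with the highest Pearson r (clone-type symbols and overlapping genes left out), and up to 4 genes per list and comparison that passed, by smallest p. The libraries singled out, and Cnr1 and Crym, were chosen after their values were seen. Marker lists for the other cell types gave no call between genotypes. By region, oligodendrocyte markers gave 2 of 8 higher in wild-type DMS and 0 in Foxp2hum/hum, astrocyte markers 2 of 6 higher in both, microglial and endothelial markers 0 of 6 and 0 of 4, interneuron markers 4 of 7 lower in both and 1 higher in Foxp2hum/hum, and cortical markers 1 of 8 higher in each (Cux2, a symbol with 2 rows of which the first was used, in wild-type and Fezf2 in Foxp2hum/hum). The interneuron list includes Gad1 and Gad2, whose levels moved in opposite directions. In wild-type the median of Gad1 was 5898 in DMS and 8369 in DLS, and that of Gad2 was 5459 and 4414. The interneuron counts are therefore no measure of interneuron number.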

Additional observations from a re-analysis of the deposited data

How the results depend on the processing

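The regional calls of Hpca and Hpcal4 in both genotypes, and the absence of one for Hpcal1, held under all 11 alternatives and with each library left out. With Ttr and Ccdc153 as covariates, Vsnl1 in wild-type (0.43), Ncald in wild-type (-0.21) and Ncald in Foxp2hum/hum (-0.19) lost their calls, and the genes called by region fell to 258 in wild-type and 348 in Foxp2hum/hum, from 3377 and 3550. Vsnl1 in Foxp2hum/hum passed with quantile normalisation (0.30, adjusted p = 0.0228), with the compared groups alone (0.25, 0.0477) and with the cortical marker covariate (0.27, 0.0407). Over the fits without 1 library its difference ran from 0.20 to 0.28. The cause of these changes was not tested.

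Between genotypes none of the 4 members tested passed in any alternative. Uncalled values moved within their intervals: Hpcal4 in DMS ran from -0.16 to -0.038 and the regional difference of Hpcal1 in wild-type from -0.095 to -0.026 without 1 library. Differences near 0 changed sign in some. Hpca in DMS was 0.087 with quantile normalisation and ran from -0.038 to 0.016 without 1 library. In DLS, Hpca ran from -0.055 to 0.028 and Hpcal4 from -0.012 to 0.14, both changing sign without library 94. The Hpca interaction was -0.0025 with the cortical covariate and ran from -0.048 to 0.047 without 1 library. The Ncald interaction was -0.025 without libraries 70 and 72, -0.0069 with edgeR and -0.0057 with DESeq2, and ran from -0.027 to 0.045 without 1 library. In DLS the genes called between genotypes were 0 by limma, 1 with array weights and 3 by DESeq2, and 0 to 1 without 1 library (1 without library 77).

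Partial on the library total, r was -0.811 for Hpca and Hpcal4 in Foxp2hum/hum DLS and -0.622 for Hpca and Ncald in wild-type DMS. Neither passed (permutation adjusted p = 0.0956 and 0.201). Spearman's rho, by which these relations had passed, was not repeated in the alternatives. No paired analysis was possible because the columns of the table carry library numbers that do not tie a library of 1 group to a library of another. Library groups of 11 and 12 limit the precision to the intervals given.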
